A study of Homo sapiens with 4 samples.

Results

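The 10 genes described here are transcriptional feedback targets of the transforming growth factor beta (TGF-beta) and bone morphogenetic protein (BMP) pathways: PMEPA1, SMAD3, SMAD6, SMAD7, SKIL, TGIF1, BAMBI, ID1, ID2 and ID3. They were chosen by gene name, with earlier results of these data known. All 10 were found among the 58735 genes of the expression table. RNA sequencing measured them in 4 libraries of H1299, an established line of human lung carcinoma (non-small cell): TTC28-KO replicates 1 and 2, whose TTC28 gene was edited with CRISPR/Cas9, and WT replicates 1 and 2, from the wild-type cells. Both genotypes were untreated and grown in RPMI1640 medium with fetal bovine serum. The labels do not say whether the knockout cells were 1 clone or whether replicates came from separate cultures, so p-values measure only the spread between these libraries.

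TGF-beta ligands bind paired type I and type II receptors, which phosphorylate SMAD2 and SMAD3. BMP ligands act mostly through other receptors and through SMAD1, SMAD5 and SMAD9. Both groups of SMADs join SMAD4 in the nucleus, and each pathway induces inhibitors of itself. In lung epithelial and cancer cells, TGF-beta is known for growth arrest and for epithelial-mesenchymal transition. Of the genes described here, PMEPA1, SMAD7, SKIL and TGIF1 are textbook TGF-beta responses and SMAD3 is the pathway's own effector, while ID1, ID2, ID3 and SMAD6 are textbook BMP responses. BAMBI, which encodes a decoy receptor without a kinase, responds to both and was kept apart.

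Levels are in FPKM, the authors' fragment number divided by gene length and scaled to library size. The libraries held 28885443 and 25120500 counts in TTC28-KO, against 25808423 and 27043491 counts in WT. TTC28 transcript was at 57.7% of WT in the knockout (adjusted p = 2.78e-06, edgeR's quasi-likelihood test). The epithelial keratin genes KRT8 and KRT18 were at 37.8 FPKM or more in TTC28-KO, against 23.7 FPKM or more in WT, while the epithelial adhesion genes EPCAM and CDH1 were at 0.214 FPKM or less in every library. The keratin gene KRT7 went the other way from KRT8 and KRT18, at 0.745 and 0.570 FPKM in TTC28-KO, against 1.94 and 2.02 FPKM in WT. The mesenchymal filament gene VIM was at 366 and 353 FPKM in TTC28-KO, against 316 and 300.0 FPKM in WT. The other mesenchymal or fibroblast markers, COL1A1, COL3A1, PDGFRB, DCN and LUM, were below 1 FPKM in every library. COL1A1, the highest of them, was at 0.424 and 0.450 FPKM in TTC28-KO, against 0.124 and 0.224 FPKM in WT. Summed over 5 leukocyte markers, levels were at most 0.126 FPKM in TTC28-KO and at most 0.138 FPKM in WT, and over 4 endothelial markers at most 0.319 FPKM in TTC28-KO and at most 0.115 FPKM in WT. The endothelial sum came mostly from KDR, at 0.208 and 0.193 FPKM in TTC28-KO, against 0.00582 and 0.0336 FPKM in WT, and the part of the keratin genes, KDR or VIM in the results was not tested.

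Among these genes, the TGF-beta targets moved in the knockout and the tested BMP targets did not pass the test. The genes were chosen with earlier results of these data known, so this contrast is a description of them only. PMEPA1, SMAD7, SKIL and TGIF1 fell, SMAD3 rose slightly, and ID1, ID2 and ID3 were within 0.19 of WT on the log2 scale. The test took only genes that reached 1 FPKM in 2 or more libraries. This kept 8 of the 10 genes, left out SMAD6 and BAMBI, and kept PMEPA1 through its WT libraries alone. Of the 8 tested genes, 5 changed, 4 lower and 1 higher, at a Benjamini-Hochberg adjusted p under 0.05 in edgeR's quasi-likelihood test. Over all 13079 tested genes, 50.3% changed, 25.2% lower and 25.1% higher, so the share of these genes called (62.5%) lies near that of all genes. For 6 of these 8 genes every TTC28-KO library lay to the same side of both WT libraries, as for 75.5% of all tested genes. The median log2 fold change was -0.97 over the 5 TGF-beta targets and -0.05 over the 3 tested BMP targets, beside a median of 0.00 over all tested genes. It was -0.11 over 9 other tested TGF-beta targets and 0.01 over 6 other tested BMP targets. No test of the difference between the lists was made, since an exact permutation of 2 against 2 libraries cannot go below p = 0.333.

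**Figure D1:**
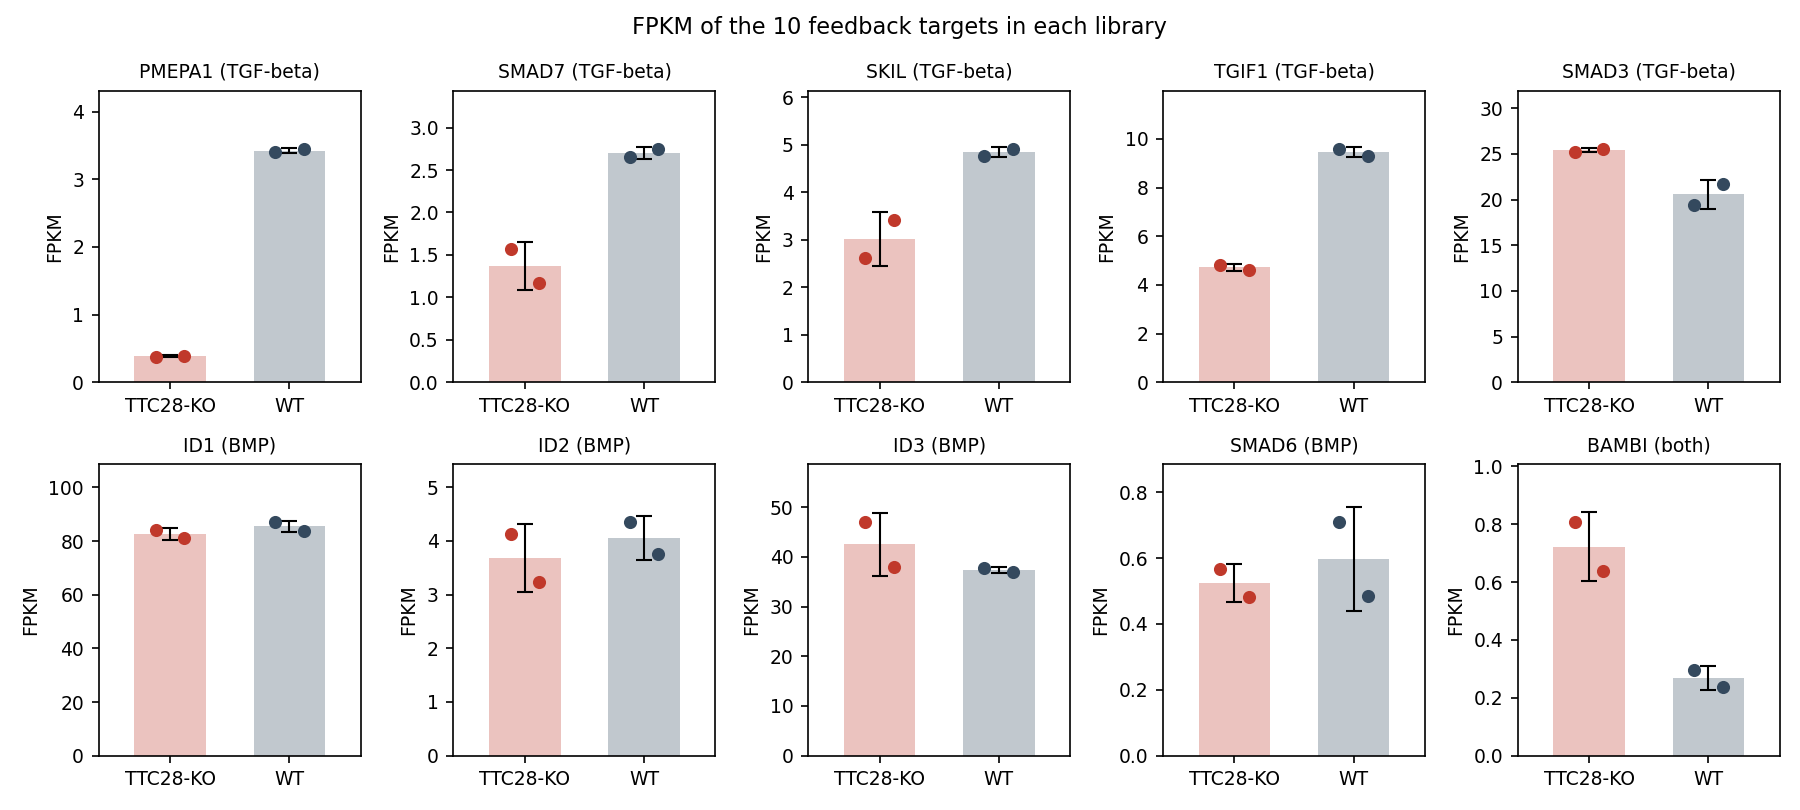
FPKM (y axis, linear, from 0) of each feedback target in the TTC28-KO and WT libraries. Points are libraries, bars are means and error bars the SD (n = 2 per group); the groups are far apart for PMEPA1, at 0.370 and 0.393 FPKM in TTC28-KO against 3.40 and 3.45 FPKM in WT, and overlap for ID1, ID2 and SMAD6.

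PMEPA1 (ENSG00000124225, hg38 chromosome 20, 57648392 to 57711536, minus strand) encodes a membrane protein that withholds SMAD2 and SMAD3 from the TGF-beta receptor. It was at 0.370 and 0.393 FPKM in TTC28-KO replicates 1 and 2, against 3.40 and 3.45 FPKM in WT replicates 1 and 2. Both knockout libraries were far below both wild-type libraries, and replicates lay close together. The counts behind these levels were 58 and 54 in TTC28-KO, against 500 and 528 in WT. PMEPA1 fell by 3.16 on the log2 scale (SE 0.138, 95% interval -3.46 to -2.86), 8.94-fold lower over the 2 knockout libraries together (adjusted p = 2.61e-09, edgeR's quasi-likelihood test). It was the only one of the 8 past a 2-fold change, and 2.26% of all tested genes were lower by at least that much. In bulk libraries, fewer cells with a transcript and less of it per cell cannot be told apart.

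On the opposite strand of PMEPA1 lies the noncoding gene NKILA, which shares 343 exonic bases with it, or 6.10% of its exonic length. NKILA had 4 and 10 counts in TTC28-KO, against 27 and 40 counts in WT. No source used here states whether counting used strand, so reads of the shared bases cannot be assigned to either gene. NKILA counts were below those of PMEPA1 in every library.

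SMAD7 (ENSG00000101665, chromosome 18, 48919853 to 48952052, minus strand) encodes the inhibitory SMAD that blocks receptor kinases and recruits SMURF ubiquitin ligases to them. It was at 1.57 and 1.17 FPKM in TTC28-KO, against 2.65 and 2.75 FPKM in WT. The groups did not overlap, although the knockout replicates stood further apart than the wild-type ones. SMAD7 fell by 0.97 on the log2 scale (SE 0.140, 95% interval -1.27 to -0.67), 1.96-fold lower over the 2 knockout libraries together (adjusted p = 8.42e-05, edgeR's quasi-likelihood test).

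SKIL and TGIF1 encode nuclear corepressors that hold SMAD complexes inactive at target genes. TGIF1 (ENSG00000177426, chromosome 18, 3411608 to 3459978, plus strand) was at 4.83 and 4.62 FPKM in TTC28-KO, against 9.59 and 9.30 FPKM in WT. This is a clean separation on 927 or more counts per library, and the log2 fold change was -0.997 (SE 0.0699, adjusted p = 1.83e-07, edgeR's quasi-likelihood test). SKIL (ENSG00000136603, chromosome 3, 170357678 to 170396835, plus strand) was at 2.61 and 3.41 FPKM in TTC28-KO, against 4.76 and 4.91 FPKM in WT. Knockout replicate 1 was the lower of the knockout libraries, and both were below both wild-type libraries. SKIL fell by 0.68 on the log2 scale (SE 0.110, adjusted p = 0.000199, edgeR's quasi-likelihood test), 1.61-fold lower.

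SMAD3 (ENSG00000166949, chromosome 15, 67063763 to 67195195, plus strand), the receptor-activated SMAD that binds DNA for TGF-beta, went the other way. It was at 25.2 and 25.6 FPKM in TTC28-KO, against 19.4 and 21.7 FPKM in WT, 1.24-fold higher without overlap. The log2 fold change was 0.31 (SE 0.0658, adjusted p = 0.00168, edgeR's quasi-likelihood test). On a TPM scale, where the FPKM of each library are scaled to the same sum, the median of all tested genes moved by -0.16, SMAD3 came to 0.14 and it no longer passed (limma, adjusted p = 0.183). Over all genes, 47.4% were called on that scale, 12.1% higher and 35.3% lower. PMEPA1, SMAD7, SKIL and TGIF1 stayed lower past the threshold on that scale. An antisense gene, AC087482.1, shares 182 exonic bases with SMAD3 and had 52 and 58 counts in TTC28-KO, against 18 and 12 counts in WT, beside at least 4643 counts of SMAD3 in each library.

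**Figure D2:**
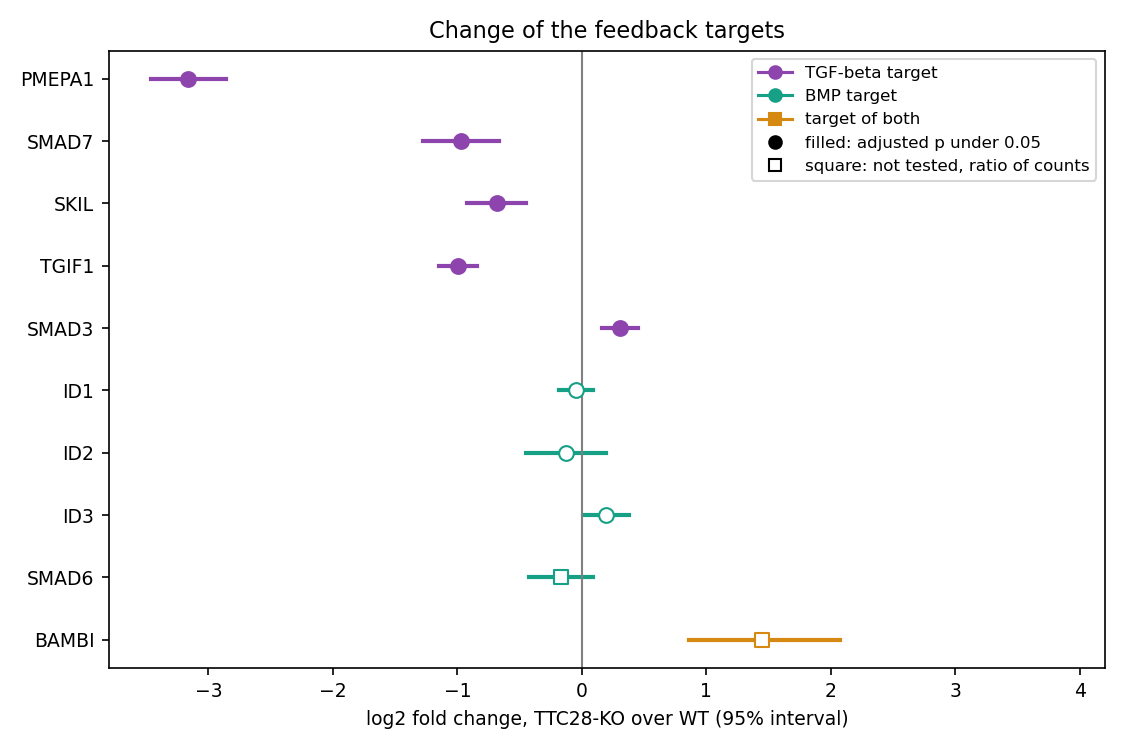
Log2 fold change of TTC28-KO over WT (x axis) with its 95% interval for each feedback target (y axis); circles come from edgeR's fit, squares from the ratio of scaled counts with an exact interval, and filled symbols passed an adjusted p of 0.05. PMEPA1 lies at -3.16, SMAD7, SKIL and TGIF1 between -0.997 and -0.68, and the intervals of ID1 and ID2 include 0.

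The ID genes encode helix-loop-helix proteins without a DNA-binding region, which pair with E proteins and keep them off DNA. ID1 (ENSG00000125968, chromosome 20, 31605283 to 31606515, plus strand) was the most abundant of the 10 genes per length, at 84.0 and 81.0 FPKM in TTC28-KO, against 87.0 and 83.9 FPKM in WT. The groups overlapped, and the log2 fold change was -0.05 with a 95% interval of -0.18 to 0.09 (adjusted p = 0.551, edgeR's quasi-likelihood test). That interval holds no fall as large as those of PMEPA1, SMAD7, SKIL or TGIF1. On the TPM scale ID1 came to -0.21 (limma, adjusted p = 0.0383), close to the shift of all genes.

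ID3 (ENSG00000117318, chromosome 1, 23557918 to 23559794, minus strand) was at 47.0 and 38.0 FPKM in TTC28-KO, against 37.8 and 36.9 FPKM in WT. Knockout replicate 1 stood above the other 3 libraries, which lay close together. The log2 fold change was 0.19 (SE 0.0858, adjusted p = 0.0818, edgeR's quasi-likelihood test). It was 0.33 without TTC28-KO replicate 2 and 0.0348 without TTC28-KO replicate 1. ID3 passed at a filter of 5 FPKM (adjusted p = 0.0493, edgeR), and on the TPM scale it came to 0.0138 (limma, adjusted p = 0.928). Its size therefore depends on which knockout library is kept and on the scaling.

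ID2 (ENSG00000115738, chromosome 2, 8678845 to 8684453, plus strand) was at 4.13 and 3.23 FPKM in TTC28-KO, against 4.34 and 3.76 FPKM in WT. The groups overlapped, on 174 to 254 counts per library, and the log2 fold change was -0.13 (95% interval -0.45 to 0.19, adjusted p = 0.489, edgeR's quasi-likelihood test). ID2 lies in a stretch of chromosome 2 where neighbouring genes were lower in the knockout: the median log2 fold change of the 25 tested genes on each side was -0.77. Relative to that local median ID2 was higher, at 0.64 (adjusted p = 0.00354, edgeR), in a fit that called 47.4% of all genes, 24.1% higher and 23.4% lower. For the other 7 tested genes the local median lay between -0.14 and 0.17, and removing it left the calls of PMEPA1, SMAD7, SKIL, TGIF1 and SMAD3 in place.

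Summed over the 3 genes, ID transcript levels were 135 and 122 FPKM in TTC28-KO, against 129 and 125 FPKM in WT. ID1 made up 62.2% and 66.2% of that sum in TTC28-KO, against 67.4% and 67.3% in WT, and ID3 made up 34.7% and 31.1% in TTC28-KO, against 29.3% and 29.6% in WT. The ratio of ID1 to PMEPA1 levels was 227 and 206 in TTC28-KO, against 25.6 and 24.3 in WT. It sets a BMP target over the TGF-beta target that fell most, and so mostly restates the fall of PMEPA1. SMAD3, kept in the TGF-beta list as the pathway's own effector, rose, so that a ratio of ID1 to SMAD3 goes the other way. The mean log2 FPKM over the 5 TGF-beta targets was 1.51 and 1.51 in TTC28-KO, against 2.59 and 2.64 in WT. PMEPA1 gives the largest part of that fall. Over the 3 ID genes the mean was 4.66 and 4.43 in TTC28-KO, against 4.60 and 4.50 in WT.

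SMAD6 and BAMBI were below 1 FPKM in every library and were not tested. SMAD6 (ENSG00000137834, chromosome 15, 66702228 to 66782848, plus strand) encodes the inhibitory SMAD that acts mainly on BMP receptors. It was at 0.566 and 0.483 FPKM in TTC28-KO, against 0.709 and 0.484 FPKM in WT, with overlapping groups. The ratio of its scaled counts was 0.888 (95% exact Clopper-Pearson interval 0.743 to 1.06, counting error only). BAMBI (ENSG00000095739, chromosome 10, 28677342 to 28682939, plus strand) was at 0.806 and 0.637 FPKM in TTC28-KO, against 0.297 and 0.238 FPKM in WT, on 52 and 36 counts in TTC28-KO, against 18 and 15 in WT. Both knockout libraries were higher, and the ratio of scaled counts was 2.73 (95% exact Clopper-Pearson interval 1.81 to 4.21, counting error only). With the filter lowered to 0.1 FPKM, BAMBI rose by 1.42 (SE 0.342, adjusted p = 0.00521, edgeR's quasi-likelihood test, where 35% of 21208 genes were called, 16.9% higher) and SMAD6 was at -0.19 (adjusted p = 0.512). The direction for BAMBI was opposite to that for PMEPA1, SMAD7, SKIL and TGIF1.

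By level per length in TTC28-KO, the order was ID1, ID3, SMAD3, TGIF1, ID2, SKIL, SMAD7, BAMBI, SMAD6 and PMEPA1, and in WT it was ID1, ID3, SMAD3, TGIF1, SKIL, ID2, PMEPA1, SMAD7, SMAD6 and BAMBI. PMEPA1 was the last of the order in TTC28-KO and the seventh in WT. ID2 and SKIL, neighbours in both orders, overlapped in TTC28-KO.

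Promoter sequences of the 10 genes were searched for letters that SMAD complexes are known to bind, and 1 match each is shown for PMEPA1, TGIF1, SMAD3, SKIL and SMAD6, as examples for the comparison of TGF-beta with BMP targets. RefSeq windows of 250 bases before to 50 after each start (GRCh38.p14) gave 25 windows for the 10 genes. The motifs, searched on both strands, were CAGACA, the core of the CAGA box, GTCTAGAC, the SMAD palindrome, and GGCGCC, a GC-rich SMAD element, none of which overlaps another. CAGACA was found in 5 of the 25 windows, of PMEPA1, TGIF1 and SMAD3, and in 16.9% of all 35116 windows. GTCTAGAC was found in 1 of the 25, of SMAD6, and in 0.202% of all windows. GGCGCC was found in 4 of the 25, of PMEPA1, SKIL, SMAD3 and BAMBI, and in 19.2% of all windows. The shares for CAGACA and GGCGCC lie near those of all windows. SMAD7, ID1, ID2 and ID3 had none of the 3 in these windows. Genes with many starts have more windows (7 for TGIF1, 5 for SMAD3, 4 for PMEPA1 and 1 for ID1), so more chances of a match. Each sequence runs 5′ to 3′ on the gene's strand, with the match in capitals:
PMEPA1 chr20:57710675-57710704, in an exon of NKILA: ccccttgggcagCAGACAatgggtgtggat
TGIF1 chr18:3448314-3448343, in an intron of TGIF1: caatcccagccaCAGACAacccttcaaacg
SMAD3 chr15:67137875-67137904, in an intron of SMAD3: ttggatttcttcTGTCTGggtgttgccagg
SKIL chr3:170357513-170357542, outside genes: gcccgcgcgcgcGGCGCCgccgctggctcc
SMAD6 chr15:66702213-66702242, across the first base of SMAD6: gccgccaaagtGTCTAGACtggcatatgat

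SMAD3 carries the match as its reverse complement. For contrast, the 244 bases upstream of the first exon of ID1 (chr20:31605039-31605282, plus strand) are shown, since ID1 is the most abundant BMP target, did not pass the test and holds none of the 3 motifs there. SMAD7, which fell, also holds none of the 3 motifs in its windows, and SMAD3, which rose, holds CAGACA and GGCGCC. A match does not show binding, and the absence of one says nothing about sites elsewhere.
ID1: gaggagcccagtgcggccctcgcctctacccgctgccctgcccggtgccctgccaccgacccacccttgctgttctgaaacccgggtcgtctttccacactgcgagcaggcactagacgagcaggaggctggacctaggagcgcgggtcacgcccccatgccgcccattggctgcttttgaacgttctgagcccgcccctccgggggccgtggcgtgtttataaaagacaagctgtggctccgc

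The other genes of both pathways came from 10 lists of 111 genes, of which 67 were tested, 25 were higher and 10 lower. Over all tested genes 50.3% were called, 25.1% higher and 25.2% lower, and the share of these 67 called in either direction lies near that. Among TGF-beta, activin and nodal ligands, 1 of 4 tested genes rose, 0 fell and 3 did not pass. TGFB1, the main ligand, was abundant at 94.0 and 97.3 FPKM in TTC28-KO, against 92.4 and 93.0 FPKM in WT, a log2 fold change of 0.05 with a 95% interval of -0.08 to 0.18. TGFB3 was at 1.73 and 1.63 FPKM in TTC28-KO, against 1.12 and 1.13 FPKM in WT, and rose by 0.59 on the log2 scale (adjusted p = 0.00359, edgeR's quasi-likelihood test), but did not pass on the TPM scale (limma, adjusted p = 0.0718). TGFB2 was at -0.22 and GDF11 at 0.18, neither past the threshold.

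Among BMP ligands, BMP7 rose, BMP6 fell and BMP8B did not pass, and 12 further ligands of the list were below the filter. BMP7, a ligand of development and of bone and kidney, was at 2.15 and 2.09 FPKM in TTC28-KO, against 0.183 and 0.196 FPKM in WT. It rose 11.2-fold (log2 fold change 3.48, SE 0.181, adjusted p = 1.27e-08, edgeR's quasi-likelihood test), on 325 and 277 counts in TTC28-KO, against 26 and 29 in WT. BMP7, like SMAD9, ATOH8 and TCF4, passed the filter on low levels only through its TTC28-KO libraries. BMP6 was at 1.72 and 1.49 FPKM in TTC28-KO, against 4.65 and 4.38 FPKM in WT, 2.81-fold lower (adjusted p = 2.08e-06, edgeR). BMP7 and PMEPA1 lie 382 kb apart on chromosome 20, with 15 genes between them, and moved in opposite directions. Of the genes between them 2 were tested, RAE1 at -0.42 and RBM38 at -0.15. Of these 2, 1 was called lower, beside 25.2% of all tested genes.

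**Figure D3:**
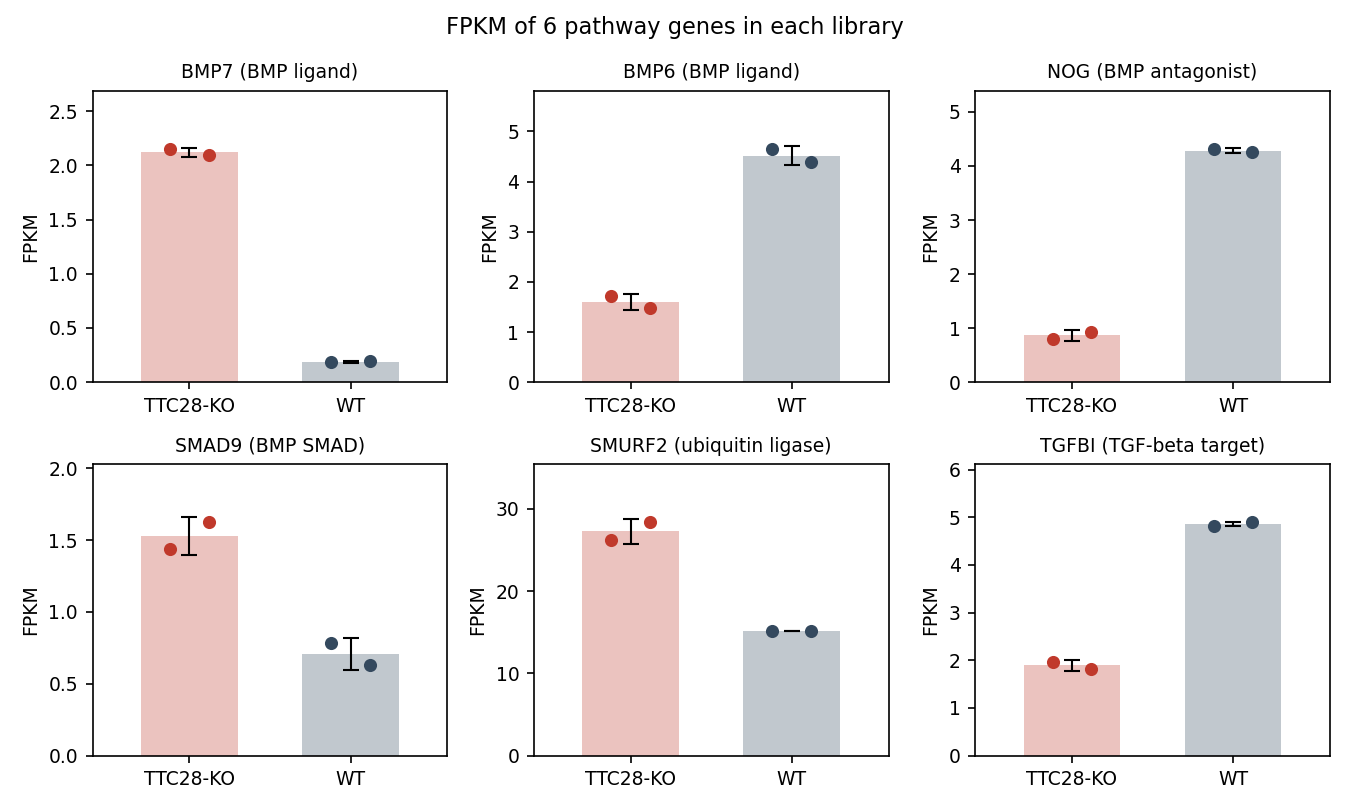
FPKM (y axis, linear, from 0) of 6 pathway genes in the TTC28-KO and WT libraries; points are libraries, bars means and error bars the SD (n = 2 per group). BMP7, SMAD9 and SMURF2 were higher in both TTC28-KO libraries, and BMP6, NOG and TGFBI lower.

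A secreted antagonist gave the largest fall among the tested genes of these lists. NOG, which encodes noggin, a protein that binds BMPs and keeps them from their receptors, passed the filter only through WT and was at 0.796 and 0.931 FPKM in TTC28-KO, against 4.32 and 4.25 FPKM in WT. It was 4.96-fold lower (log2 fold change -2.31, SE 0.184, adjusted p = 5.64e-07, edgeR's quasi-likelihood test). NBL1, another BMP antagonist gene, 15.4% of whose exonic bases also belong to MINOS1-NBL1, fell by 0.34 (adjusted p = 0.0122, edgeR), a call lost without TTC28-KO replicate 2 (adjusted p = 0.0722) and without WT replicate 1 (adjusted p = 0.137). TWSG1 (-0.10) and FSTL3 (-0.15) did not pass, so that 0 of 4 tested antagonists rose and 2 fell. Over all tested genes 25.1% were higher and 25.2% lower. CHRD and BMPER, both untested, were singled out after their values were seen. CHRD, which encodes chordin, was at 0.889 and 0.649 FPKM in TTC28-KO, against 0.242 and 0.338 FPKM in WT, and BMPER had 0 counts in TTC28-KO, against 114 in WT, at least 37.1-fold lower taking 3 counts over the group as the floor.

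Most tested receptors rose by small amounts. Of 12 tested receptors and co-receptors 8 rose, 0 fell and 4 did not pass, at a median log2 fold change of 0.35, beside 25.1% of all tested genes higher. The BMP type I receptor gene ACVR1 was at 13.6 and 15.3 FPKM in TTC28-KO, against 8.72 and 9.63 FPKM in WT (log2 fold change 0.65, SE 0.0847), and the BMP type II receptor gene BMPR2 at 9.02 and 9.84 FPKM in TTC28-KO, against 5.89 and 6.60 FPKM in WT (0.60, SE 0.0729). The TGF-beta receptor genes TGFBR2 (0.58, SE 0.0792) and TGFBR1 (0.44, SE 0.0709) also rose, with TGFBR2 at 10.9 and 10.8 FPKM in TTC28-KO, against 6.91 and 7.69 FPKM in WT. ACVR1B, an activin receptor, rose by 0.34 on the log2 scale, but did not pass on the TPM scale (limma, adjusted p = 0.0882) or with the local median removed (edgeR, adjusted p = 0.654). On the TPM scale 5 of the 12 passed, all higher, beside 12.1% of all tested genes. With the local median removed 4 passed, beside 24.1% of all tested genes higher, and ACVR1, whose local median was 0.51, came to 0.15 (adjusted p = 0.168, edgeR). TGFBR1, TGFBR2 and BMPR2 kept their calls in both settings.

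Of the signal-transducing SMADs other than SMAD3, SMAD9 rose and SMAD4, SMAD5 and SMAD1 did not pass. SMAD9, a BMP-specific SMAD, was at 1.44 and 1.62 FPKM in TTC28-KO, against 0.787 and 0.629 FPKM in WT, 2.16-fold higher (log2 fold change 1.11, SE 0.164, adjusted p = 9.88e-05, edgeR's quasi-likelihood test). SMAD2, the partner of SMAD3, was at 2.78 and 2.87 FPKM in TTC28-KO, against 3.25 and 3.17 FPKM in WT, a fall of -0.18 (adjusted p = 0.0256, edgeR) that did not pass without TTC28-KO replicate 1 (0.0754), WT replicate 1 (0.165) or WT replicate 2 (0.0800). SMAD4, the common partner, was at 0.05 with a 95% interval of -0.09 to 0.19.

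Of 16 tested intracellular regulators 6 rose, 2 fell and 8 did not pass, beside 25.1% of all tested genes higher and 25.2% lower. The related ubiquitin ligases SMURF1 and SMURF2, which SMAD7 brings to receptors, moved apart: SMURF2 was at 26.2 and 28.4 FPKM in TTC28-KO, against 15.2 and 15.2 FPKM in WT (log2 fold change 0.85, SE 0.0649), and SMURF1 at 10.0 and 10.6 FPKM in TTC28-KO, against 17.2 and 18.8 FPKM in WT (-0.80, SE 0.0683). The adjusted p was 3.95e-07 for SMURF2 and 9.94e-07 for SMURF1 in edgeR's quasi-likelihood test. NEDD4L, another ligase of SMADs, rose 1.49-fold. STRAP, a partner of SMAD7 at the receptor, fell by 0.46, but lies where its neighbours also fell, and stood at -0.03 after removal of that local median. SMURF1 shares 11.7% of its exonic bases with TRRAP on the opposite strand.

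**Figure D4:**
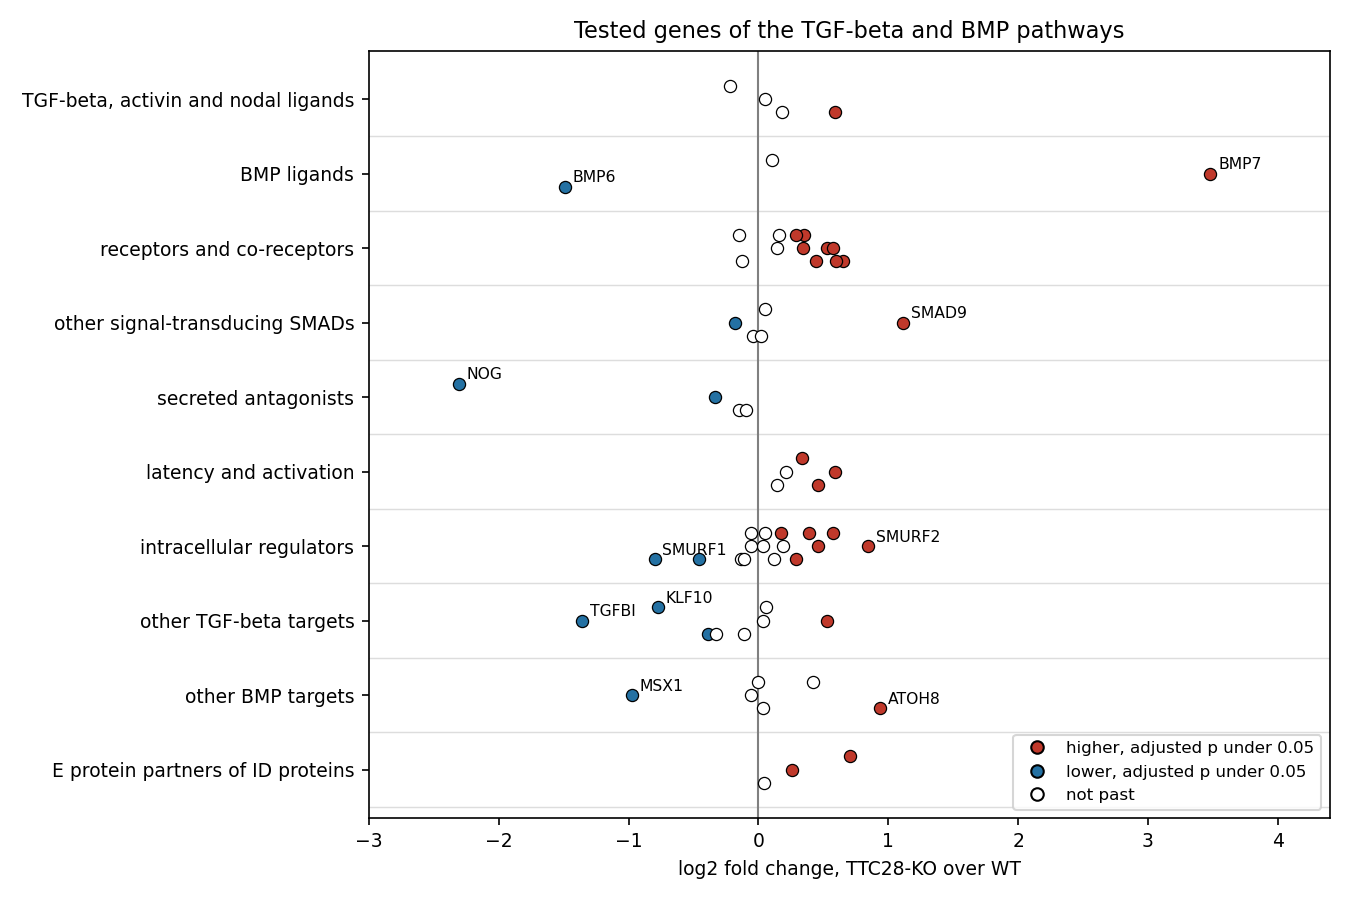
Log2 fold change of TTC28-KO over WT (x axis) for tested genes of the 10 pathway lists (y axis); red points were higher and blue points lower at an adjusted p under 0.05, and white points did not pass. BMP7 lies farthest to the right at 3.48 and NOG farthest to the left at -2.31, while 8 of 12 receptors lie to the right of 0 past the threshold.

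In the list of latent TGF-beta binding proteins, integrins and related genes, 3 of 5 tested rose, 0 fell and 2 did not pass. Beside this, 25.1% of all tested genes were higher and 25.2% lower. LTBP2 is a member of that protein family known not to bind latent TGF-beta. LTBP4, a matrix protein gene of that family, was at 81.2 and 86.6 FPKM in TTC28-KO, against 54.2 and 57.9 FPKM in WT, higher by 0.59 on the log2 scale (adjusted p = 1.31e-05, edgeR's quasi-likelihood test). LTBP2 (0.33) and the integrin gene ITGAV (0.46) rose and LTBP3 was at 0.14, not past the threshold. LTBP2 did not pass on the TPM scale (limma, adjusted p = 0.152), and ITGAV lost its call relative to its neighbours' median (adjusted p = 0.139, edgeR). In that setting LTBP3 (0.24, adjusted p = 0.00434, edgeR) and LTBP1 (0.35, adjusted p = 0.0207, edgeR) passed. This made 4 of 5 higher, beside 24.1% of all tested genes.

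Other TGF-beta targets did not follow PMEPA1 as a group. Of 9 tested 2 rose, 3 fell and 4 did not pass, at a median log2 fold change of -0.11. Among all tested genes 25.1% were higher and 25.2% lower. CDKN1A, the gene of the cell cycle inhibitor p21, rose 1.44-fold. TGFBI, a secreted matrix protein gene, fell to 1.98 and 1.81 FPKM in TTC28-KO, against 4.82 and 4.89 FPKM in WT (-1.36, SE 0.0872, adjusted p = 8.43e-08, edgeR), and KLF10, a zinc finger repressor gene induced early by TGF-beta, fell 1.71-fold.

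Other BMP targets were as mixed. Of 6 tested 1 rose, 1 fell and 4 did not pass, at a median of 0.01, beside 25.1% of all tested genes higher and 25.2% lower. ATOH8, a helix-loop-helix factor gene, was at 1.20 and 1.06 FPKM in TTC28-KO, against 0.584 and 0.598 FPKM in WT, 1.91-fold higher (adjusted p = 0.000377, edgeR's quasi-likelihood test). MSX1, a homeobox gene, was at 1.86 and 1.99 FPKM in TTC28-KO, against 3.64 and 3.95 FPKM in WT, 1.97-fold lower (adjusted p = 0.000159, edgeR). DLX5 (0.42) and DLX2 (-0.05) did not pass. Relative to the median of their neighbours both passed, DLX5 at 0.60 (adjusted p = 0.0435, edgeR) and DLX2 at -0.33 (adjusted p = 0.0314, edgeR), which made 2 higher and 2 lower. Of the E protein genes whose products ID proteins bind, TCF4, which passed the filter only through TTC28-KO, rose 1.63-fold, TCF3 rose by 0.26 on the log2 scale and TCF12 did not pass, while TCF3 did not pass on the TPM scale (limma, adjusted p = 0.267).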

How the data were processed

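Total RNA of 2 TTC28-KO and 2 WT libraries was sequenced after an Illumina TruSeq RNA preparation, per the labels' protocols. The submitters' processing notes name HISAT2 2.0.5 as a tool and hg38 as the build. How reads were counted, with or without strand, and on which annotation, is not stated there. Per the file headers, each gene has a raw count in every library and FPKM values that the authors made from gene length and library size. The group means of scaled signal, deposited by the authors, were not used. The authors' deposited log2 fold change and p-value columns, whose tool the headers do not name, were used only beside BAMBI and PMEPA1 in the closing section. Library totals ranged from 25120500 to 28885443 counts.

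Genes reaching 1 FPKM in 2 or more libraries (13079) had their counts tested with edgeR 4.0.16 under R 4.3.3 (TMM factors, no covariates, two-sided, Benjamini-Hochberg adjustment over all tested genes, threshold 0.05). Intervals of fold changes use the standard error and degrees of freedom of the same fit. Genes below the filter are given as ratios of counts scaled by effective library size, with exact Clopper-Pearson intervals. Alternatives were other filters, scalings, limma 3.58.1 on log2 FPKM or TPM, DESeq2 1.42.0, leaving out each library, a replicate block, and removal of the median of the 25 tested genes on each side. edgeR, DESeq2 and limma were run on simulated counts in which 200 of 13079 genes were changed. In the data 50.3% of tested genes were called, so that run does not show how the methods do with so many changes. Coordinates are those of the table, and the 10 genes have the same ones in GENCODE 29, which gave exon overlaps.

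The 10 genes and the pathway lists were chosen with earlier results of these data known. Beyond the 10, the text names from each list up to 4 tested genes with the smallest p, those changed at least 2-fold, and ligands and receptors over 10 FPKM; CHRD and BMPER were chosen after their values were seen. A gene of the pathway lists and an identity marker are not reported here, though the list counts include that gene and the plot of pathway genes leaves it out.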

Additional observations from a re-analysis of the deposited data

How the results depend on the processing

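Under 16 alternatives PMEPA1, SMAD7, SKIL and TGIF1 stayed lower and past the threshold wherever they were tested (PMEPA1 from -3.23 to -1.68), and SMAD3 lost its call on the TPM scale alone. A filter of 5 FPKM left 7490 genes, 4346 of them called, and 4 of the 10 genes, 3 of them called; the medians of TGF-beta and BMP targets were then -0.32 and 0.0915, over 2 genes each. The TGF-beta median was -1.04 with total-count scaling, -0.65 and -0.94 with limma at pseudocounts of 1 and 0.1, and -1.02 to -0.89 over fits without 1 library, in which a single remaining library borrows the spread of the other group. The BMP median was -0.21 on the TPM scale and 0.0653 with the local median removed. ID2 turned positive with the local median removed (0.64) and without TTC28-KO replicate 2 (0.0259), where it did not pass; the cause was not tested. Of all genes called, 49.9% were higher, against 25.5% on the TPM scale and 40.0% with total-count scaling. With no filter 7972 genes were called. Deviations of same-numbered libraries had a correlation of -0.00, so that the numbers pair nothing in the data; a replicate block gave 7108 calls, and ID3 then passed (adjusted p = 0.0171, edgeR). Counts of 15 to 52 for BAMBI limit its precision.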

Other observations

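In the authors' deposited table BAMBI had a log2 fold change of 1.42 (adjusted p = 0.0381) and PMEPA1 one of -3.18, knockout over wild type. LDLRAD4, a paralog of PMEPA1 with a like role at SMAD2 and SMAD3, had 20 and 19 counts in TTC28-KO, against 6 and 3 counts in WT; it lies below the filter and was singled out after its values were seen.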
